A study of Rattus norvegicus with 8 samples.

Results

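Expression of 9 genes of the complement system was followed in the hypothalamus of rats given retinoic acid (RA). They are *C1qa*, *C1qb*, *C1qc*, *C1s*, *C4a*, *C2*, *C3*, *Cfb* and *Serping1*, and make up 9 of the 15153 genes that could be named on the arrays. They were chosen by name as components and a regulator of complement, with earlier results of these data known. Male F344 rats held in short day photoperiod (SD) received 5 μl of all-*trans* RA or vehicle through a cannula into the third ventricle, and hypothalamic tissue blocks that include the arcuate nuclei were taken 24 hrs later. The labels of the arrays give RA at 1e-05 M and name saline as the vehicle, whereas the methods of the study give 1e-04 M for these rats in DMSO and saline, without naming what the vehicle held. The RNA of 4 rats with RA and 4 with vehicle was compared on 8 two-colour Agilent arrays, with RA labelled in Cy5 on arrays 1, 3, 6 and 8 and in Cy3 on arrays 2, 4, 5 and 7. All 8 arrays shared 1 slide, numbers 1 to 4 in its first row and the rest in its second. Animal age and which arrays carry RNA of the same rats are not given in the sources used here.

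Complement is a cascade of plasma and tissue proteins that tags microbes, debris and cells for removal. In the classical pathway C1q recognises the target, the attached proteases C1r and C1s cleave C4 and C2, and their fragments form an enzyme that cleaves C3. Factor B joins cleaved C3 in a further C3-cleaving enzyme, the amplification loop of the alternative pathway, and later components assemble into a pore in the target membrane. C1 inhibitor, encoded by *Serping1*, holds C1r and C1s in check. In the brain, C1q is made mainly by microglia, astrocytes are a known source of C3 and C4, and C1q and C3 are known for tagging synapses that microglia then remove.

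Several of the 9 genes are neighbours in the genome. On the GRCr8 assembly *C1qb*, *C1qc* and *C1qa* are direct neighbours on chromosome 5, *C2* and *Cfb* are direct neighbours on chromosome 20, which also holds *C4a*, and *C1s* adjoins *C1r* on chromosome 4. *C3* lies on chromosome 9 and *Serping1* on chromosome 3. RefSeq sequence upstream of the annotated start was found for 4 of the 9 genes, and its 250 bases are shown because all 4 passed the test given below (5′ to 3′ along the gene, with motif matches in capitals). They are *C1qa* at chr5:154419934-154420183 on the minus strand, *C1qb* at chr5:154407828-154408077 on the minus strand, *C3* at chr9:2201340-2201589 on the minus strand and *C4a* at chr20:4010107-4010356 on the plus strand, all on GRCr8.
C1qa: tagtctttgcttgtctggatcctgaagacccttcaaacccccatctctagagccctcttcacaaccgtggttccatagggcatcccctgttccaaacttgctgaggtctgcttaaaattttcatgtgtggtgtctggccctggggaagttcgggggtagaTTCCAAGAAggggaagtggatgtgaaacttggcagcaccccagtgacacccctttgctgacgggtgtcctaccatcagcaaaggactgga
C1qb: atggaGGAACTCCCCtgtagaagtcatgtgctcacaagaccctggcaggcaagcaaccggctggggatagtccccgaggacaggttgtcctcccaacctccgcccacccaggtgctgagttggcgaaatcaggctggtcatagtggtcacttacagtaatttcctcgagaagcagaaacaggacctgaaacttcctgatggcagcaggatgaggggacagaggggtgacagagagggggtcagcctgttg
C3: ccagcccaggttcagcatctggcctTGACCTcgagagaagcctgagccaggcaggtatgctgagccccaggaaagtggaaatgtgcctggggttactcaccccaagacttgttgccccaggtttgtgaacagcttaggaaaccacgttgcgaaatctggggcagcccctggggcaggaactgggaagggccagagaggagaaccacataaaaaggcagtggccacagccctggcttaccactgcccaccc
C4a: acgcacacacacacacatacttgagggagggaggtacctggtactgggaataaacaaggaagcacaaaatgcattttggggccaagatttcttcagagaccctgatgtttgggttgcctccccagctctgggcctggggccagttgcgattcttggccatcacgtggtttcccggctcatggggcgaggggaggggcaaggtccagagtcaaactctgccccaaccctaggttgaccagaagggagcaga
The capitals in *C1qa* mark a match to TTCNNNGAA, the letters bound by STAT factors, 90 to 82 bases before the start. Those in *C1qb* mark a match to the NF-kB consensus on the opposite strand, 245 to 236 bases before the start, and those in *C3* a single AGGTCA on the opposite strand, 225 to 220 bases before it. In *C4a* no searched motif was found in this window. Over 33469 rat promoters of the same length, searched on both strands, 7.667% held TTCNNNGAA, 6.325% the NF-kB consensus and 14.06% AGGTCA. The direct repeats of AGGTCA with a spacing of 1, 2 or 5 bases, which retinoic acid receptors are known to bind, were in 0 of the 4 windows and in 0.051%, 0 and 0.009% of all promoters. The interferon response motif, a repeat of GAAA with 2 bases between, found in 3.406% of promoters, CCAAT, in 34.02%, and TATAAA, in 12.93%, were in 0 of the 4 as well. No match overlapped a match to another motif.

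On each array the measure was the log2 ratio of the RA channel over the vehicle channel after loess normalisation, so that a positive value is a higher level after RA. The share of distinct probes with signal well above background was 57.4% to 74.6% after RA and 61.2% to 74.5% after vehicle. The probes of all 9 members were well above background in both channels on all 8 arrays, and none of their spots was saturated. Of the hypothalamic neuropeptide genes 14 of 15, and of the neuron markers 5 of 5, were well above background on every array, whereas 0 of 6 hepatocyte markers were. Markers of tissue that borders the hypothalamus stood apart on some arrays. The median log2 ratio of 10 choroid plexus markers was -1.39 on array 6 and -1.59 on array 7, with *Ttr* at -4.48 and -5.11, against 0.08 to 0.57 on the other arrays. The median of 6 meninges markers was -0.61 on array 5 and -0.83 on array 8, against -0.12 to 0.47 elsewhere. Arrays 5 and 8 were also low in the median of the 15 neuropeptide genes, at -0.35 and -0.29, against -0.05 to 0.33 elsewhere. Single genes of that list ran from -1.30 (*Pmch*) to 0.84 (*Crh*) on array 5 and from -1.16 to 0.93 on array 8. They spread on the other arrays as well. They ran from -0.47 to 1.13 on array 1, -0.67 to 0.90 on array 2, -0.62 to 1.36 on array 3 and -0.60 to 1.33 on array 4. On arrays 6 and 7 they ran from -0.40 to 0.56 and from -0.46 to 0.50. The part of these differences in the complement ratios was not tested.

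All 9 complement genes had a log2 ratio above 0 on 8 of 8 arrays, which was true of 4.07% of the named genes. Log2 fold changes ran from 0.52 for *C4a* to 1.55 for *Cfb*, with a median of 0.83, whereas the median over all named genes was -0.0047. The test was limma on 4 means, each over an array of either dye order, with the largest p over the 24 possible pairings. At the methods' threshold of an unadjusted p under 0.01, 8 of the 9 were higher after RA and 0 were lower, and the ninth, *C2*, had unadjusted p = 0.0130 in limma. Of the named genes, 3.52% were higher at this threshold. After Benjamini-Hochberg adjustment over 30367 probes 0 of the 9 were under 0.05, with adjusted p from 0.222 to 0.326 in limma. At an unadjusted p under 0.05 in limma were 9 of the 9 and, in either direction, 1978 of the 15153 named genes. With the pairs 1 and 2, 3 and 4, 6 and 7, and 8 and 5 as a random block, a pairing that is not stated in the sources used here, 8 of the 9 were higher with an adjusted p under 0.05, against 2.22% of the named genes. Because the RNA comes from whole tissue blocks, more cells of a type and more RNA per cell cannot be told apart.

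**Figure D1:**
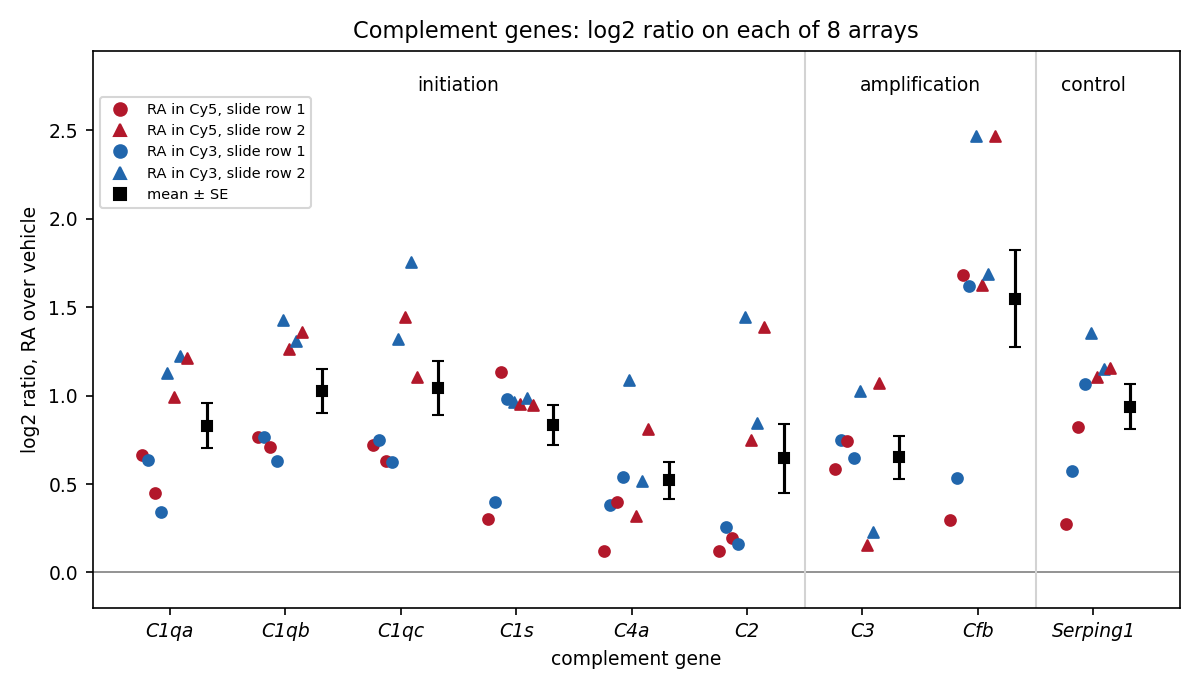
Log2 ratio of RA over vehicle (y axis) for each of the 9 complement genes (x axis) on the 8 arrays, with colour for the dye order, symbol for the slide row and a black square for the mean ± SE. Every point lies above 0, from 0.12 to 2.47, and the triangles of the second slide row lie above all circles of the first for 5 of the 9 genes.

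The plot of ratios by gene shows higher ratios in the second row of the slide for most members. For *C1qa*, *C1qb*, *C1qc*, *C2* and *Serping1*, the 4 ratios of the second row all exceeded the 4 of the first, as was the case for 5.3% of the named genes. The median of the 9 members was 0.30, 0.57, 0.71 and 0.63 on arrays 1 to 4 and 1.32, 0.99, 1.15 and 1.16 on arrays 5 to 8. Both dye orders were equally present in each row. The difference between the rows was not tested, and slide row and the rats on it cannot be told apart.

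The 3 chains of C1q assemble into the recognition molecule of the classical pathway. Between the highest and lowest of their ratios lay 0.10 on array 1, the least, and 0.46 and 0.53 on arrays 6 and 7, the most. *C1qa* had log2 ratios of 0.66, 0.64, 0.45 and 0.34 on arrays 1 to 4 and of 1.13, 0.99, 1.22 and 1.21 on arrays 5 to 8. This was a 1.78-fold increase (log2 fold change 0.83, SE 0.13, unadjusted p = 0.000266 in limma), with 0.52 in the first row and 1.14 in the second. For *C1qb* the ratios were 0.77, 0.77, 0.71 and 0.63 in the first row and 1.43, 1.26, 1.31 and 1.36 in the second. The 2.04-fold increase of *C1qb* (log2 fold change 1.03, SE 0.12, unadjusted p = 6.70e-05 in limma) had the smallest p of the 9 members. *C1qc*, at 0.72, 0.75, 0.63 and 0.63 and then 1.32, 1.45, 1.76 and 1.10, rose 2.06-fold (log2 fold change 1.04, SE 0.15, unadjusted p = 0.000212 in limma), with 0.68 in the first row and 1.41 in the second. The root-mean-square difference over the 8 arrays was 0.20 between *C1qb* and *C1qc* and 0.21 between *C1qa* and *C1qb*, the closest pairs among the 36 pairs of members, and 0.29 between *C1qa* and *C1qc*, above the 0.22 between *C1s* and *Serping1*. *C1qa* was nevertheless below *C1qb* on 8 of 8 arrays, by 0.20 on average. The array of highest C1q ratios was array 7, where the mean of the 3 chains was 1.43, and that of lowest was array 4, at 0.53.

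*C1s*, the protease that cleaves C4 and C2, showed another pattern over the arrays. Its ratio was 0.30 and 0.40 on arrays 1 and 2 and lay between 0.94 and 1.13 on the other 6. The increase was 1.78-fold (log2 fold change 0.83, SE 0.11, unadjusted p = 0.000123 in limma), at 0.70 in the first row and 0.96 in the second. Among the arrays with RA in Cy3, array 2 lay apart from the other three, which ran from 0.96 to 0.99. *C1r*, the partner protease and genomic neighbour of *C1s*, is no member but was also higher (log2 fold change 0.52, SE 0.10, unadjusted p = 0.00132 in limma), with ratios from 0.17 to 0.93.

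*C4a* encodes component 4, and had the smallest fold change of the 9. Its ratios were 0.12, 0.38, 0.40 and 0.54 in the first row and 1.09, 0.32, 0.52 and 0.81 in the second. The 1.44-fold increase (log2 fold change 0.52, SE 0.11, unadjusted p = 0.00146 in limma) rested on ratios that overlapped between the rows. Rats hold a near-identical gene, *C4b*, which had no probe of its own under that name here, so the signal may come from either copy. The mean was 0.41 over the arrays with RA in Cy5 and 0.63 over those with RA in Cy3, the widest gap between dye orders among the members.

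*C2*, the protease component of the classical C3-cleaving enzyme, did not pass the threshold. Its ratios were 0.12, 0.26, 0.20 and 0.16 on arrays 1 to 4, but 1.44, 0.75, 0.84 and 1.39 on arrays 5 to 8. The log2 fold change of 0.65 (SE 0.20, unadjusted p = 0.0130 in limma) was the mean of 0.18 in the first row and 1.11 in the second. Without arrays 8 and 5 it was 0.39. In 22 of the 24 pairings the p was under 0.01, and its other probe gave the same log2 fold change of 0.65 (SE 0.20, unadjusted p = 0.0130 in limma). *C2* was the lowest of the 9 genes on each of arrays 1 to 4.

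*C3*, the component on which all pathways converge, differed from the others in which arrays were low. Its ratios were 0.59, 0.75, 0.74 and 0.65 in the first row and 1.03, 0.15, 0.23 and 1.07 in the second. The increase was 1.57-fold (log2 fold change 0.65, SE 0.12, unadjusted p = 0.00104 in limma), and the second row alone gave 0.62 with unadjusted p = 0.0166. Arrays 6 and 7 also had high channel levels, in log2 intensity after scaling between arrays. The RA level of *C3* was 12.7 on both arrays, the highest of the 8, and the vehicle level was 12.5 on both, against 10.1 to 11.1 on the other 6. The vehicle levels of *C1qa*, *C1qb*, *C1qc*, *C4a* and *C2* on these arrays exceeded those of the other 6 as well. The choroid plexus markers had negative ratios on these same arrays, as given above. Their part in the *C3* ratio was not tested. Without arrays 6 and 7 the log2 fold change of *C3* was 0.80.

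*Cfb* encodes factor B, the protease component of the alternative C3-cleaving enzyme, and had the largest fold change of the 9 members. Its ratios spread widely, at 0.30, 0.53, 1.68 and 1.62 on arrays 1 to 4 and 2.47, 1.63, 1.69 and 2.47 on arrays 5 to 8. The increase was 2.92-fold (log2 fold change 1.55, SE 0.28, unadjusted p = 0.000693 in limma), with 1.03 in the first row and 2.06 in the second. By size of fold change *Cfb* ranked 24 among the 15153 named genes, and the other members ranked from 75 (*C1qc*) to 284 (*C4a*). The vehicle level of *Cfb* stayed between 9.94 and 10.74, whereas its RA level ran from 10.4 on array 1 to 13.2 on array 5. *Cfb* was the highest of the 9 genes on arrays 3, 4, 5, 6 and 8, but on arrays 1 and 2 it lay below all 3 chains of C1q. Its ratio exceeded that of its neighbour *C2* on 8 of 8 arrays, by 0.90 on average.

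*Serping1*, encoding C1 inhibitor, was the member closest to the mean of the 9 over the arrays, with a root-mean-square difference of 0.15 against 0.80 for *Cfb*. Its ratios were 0.27, 0.57, 0.82 and 1.06 on arrays 1 to 4 and 1.36, 1.11, 1.15 and 1.16 on arrays 5 to 8. The increase was 1.92-fold (log2 fold change 0.94, SE 0.13, unadjusted p = 0.000113 in limma), from 0.68 in the first row to 1.19 in the second. Like *C1s*, which its protein inhibits, *Serping1* was low on arrays 1 and 2, and the root-mean-square difference between these genes was 0.22.

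**Figure D2:**
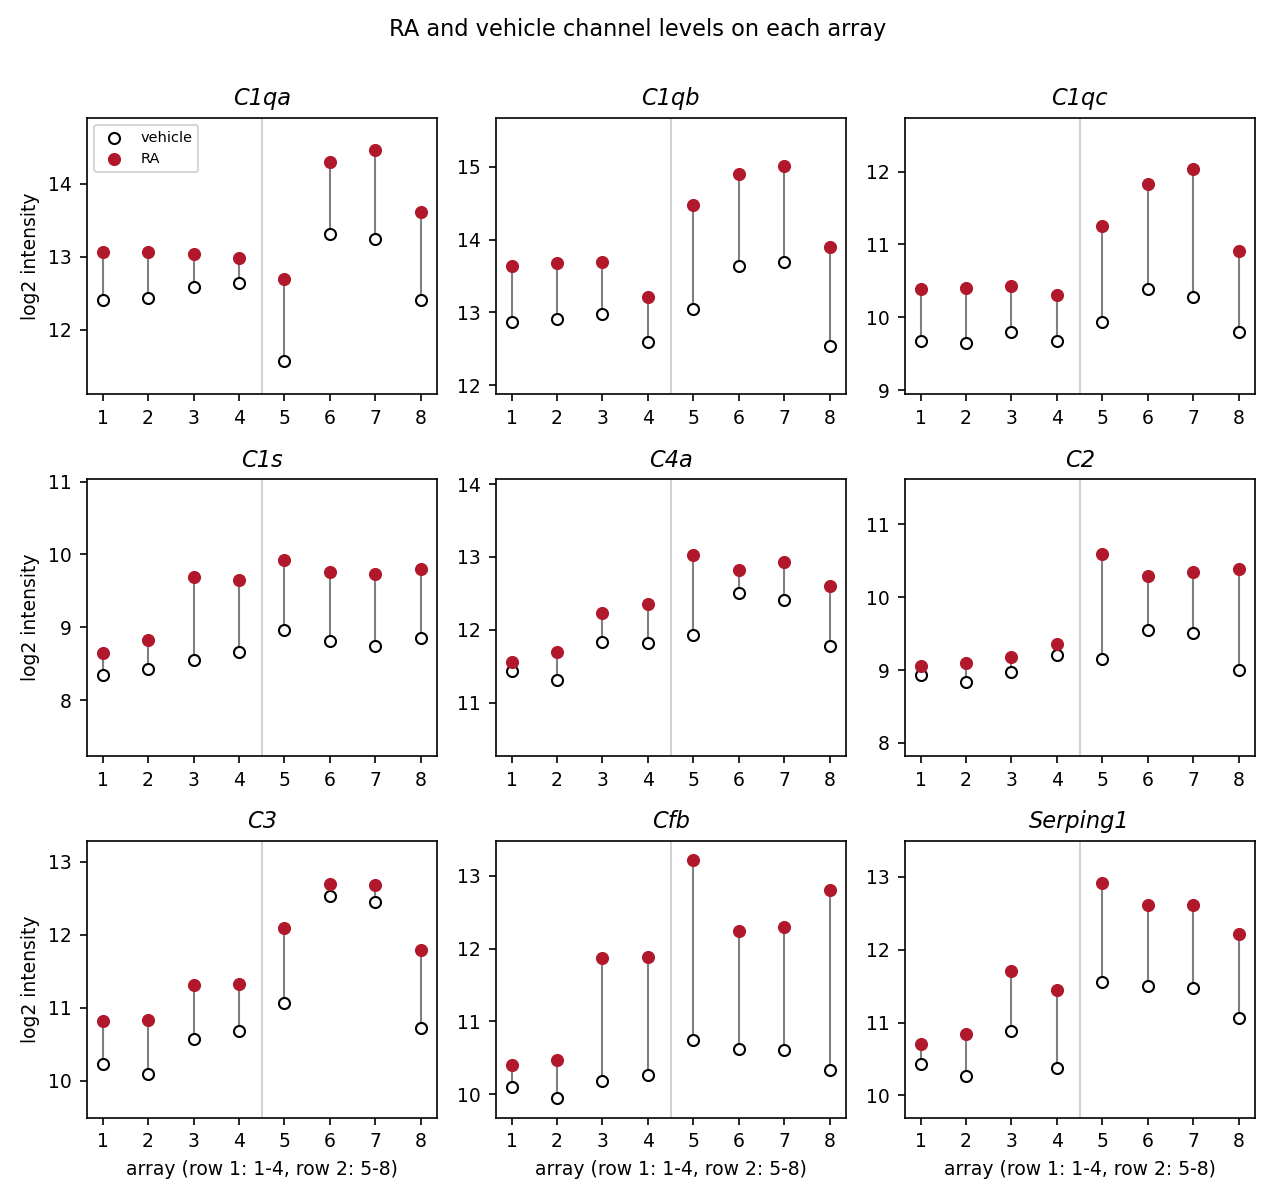
Levels of the RA channel (filled) and vehicle channel (open) in log2 intensity (y axis, same span in each panel) on arrays 1 to 8 (x axis) for each complement gene, with a line joining the channels of an array. RA lies above vehicle on every array, and the *C3* vehicle points of arrays 6 and 7, both 12.5, stand above those of the other arrays.

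Between arrays, RA and vehicle levels overlapped for all 9 genes. The 8 RA levels all exceeded the 8 vehicle levels in 0 of the 9, against 0.264% of the named genes. The highest vehicle level was exceeded by the RA level of 6 arrays for *C1qc*, *C1s* and *Cfb*, of 5 for *Serping1*, of 4 for *C1qb*, *C4a* and *C2*, of 3 for *C1qa* and of 2 for *C3*. The plot of channel levels shows that C1q levels were raised in both channels on arrays 6 and 7. For *C1qb* the vehicle level was 13.6 and 13.7 there, against 12.5 to 13.1 on the other 6 arrays, and the RA level was 14.9 and 15.0, against 13.2 to 14.5. Levels of a channel are open to dye effects, and to spot effects that the ratio within an array removes, so they are given without a test.

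Measured genes of the whole complement pathway, members included, were 43. Of these, 16 were higher after RA in limma at an unadjusted p under 0.01 and 0 were lower. At an unadjusted p under 0.05 in either direction were 23 of the 43, against 1978 of the 15153 named genes. The 23 include *Vtn*, which was lower. Of the 34 genes outside the 9 members, 8 were higher, or 23.5%, against 3.52% of the named genes, and their median log2 fold change was 0.05. In the classical pathway 6 of 7 passed. In the lectin pathway, whose pattern recognition molecules bind sugars, 1 of 7 passed. That gene was *Fcnb*, encoding ficolin B, with a log2 fold change of 1.63 (SE 0.41, unadjusted p = 0.00466 in limma) made of 0.58 in the first row and 2.69 in the second. *Fcnb* was not well above background on every array. The collectins *Mbl1* and *Mbl2* were well above background on 0 of 8 arrays in both channels, so their change was not detectable. The same held for some other genes of that pathway. *Masp1*, a protease of the pathway, had a log2 fold change of -0.03.

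Of the 4 genes of the amplification loop 3 passed. Besides *C3* and *Cfb* this was *Cfp*, encoding properdin, which stabilises the alternative enzyme (log2 fold change 0.32, SE 0.07, unadjusted p = 0.00146 in limma). *Cfd*, encoding the protease that activates factor B, had a value of 0.23 and unadjusted p = 0.0332 in limma. The genes of the membrane pore, *C6*, *C8b* and *C9* among them, gave 0 of 4, but none of the 4 was well above background on every array. *C6* was so on 5 arrays after RA and 6 after vehicle, *C8b* on 4 and 4, and *C9* on 2 and 0. A change in such weak signals may have been missed. *C5*, *C7* and *C8g* were not measured under these names.

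Control genes other than *Serping1* mostly did not pass, but some had little signal. *C4bpa* and *Vsig4* were well above background on 0 arrays in both channels, so a change in them may have been missed. Of 7 soluble regulators only *Serping1* passed. *Clu*, encoding clusterin, was at 0.14, and *Vtn*, encoding vitronectin, was at -0.17. Of 7 membrane regulators *Cr1l* passed (log2 fold change 0.22, SE 0.06, unadjusted p = 0.00482 in limma), whereas *Cd55* and *Cd46* had values of -0.03 and 0.02.

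Receptors gave 4 of 7. *Itgam* and *Itgb2*, the chains of complement receptor 3 on phagocytes, had log2 fold changes of 0.87 (SE 0.18, unadjusted p = 0.00174 in limma) and 0.77 (SE 0.20, unadjusted p = 0.00536 in limma). *C5ar1*, the receptor of the C5a fragment, was at 0.66 (SE 0.14, unadjusted p = 0.00190 in limma). *C3ar1*, the receptor of C3a, was at 0.49 (SE 0.11, unadjusted p = 0.00228 in limma) but its signal was well above background on 5 arrays after RA and 4 after vehicle. The ratios of *Itgb2* were above 0 on 6 of 8 arrays, and those of *Itgam* on 8 of 8. With RA in Cy5 and in Cy3 the mean was 1.19 and 0.36 for *Itgb2* and 0.72 and 0.26 for *C3ar1*. It was 0.89 and 0.84 for *Itgam* and 0.73 and 0.60 for *C5ar1*. *C5ar2* and *Cr2* were well above background on 0 arrays in both channels.

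**Figure D3:**
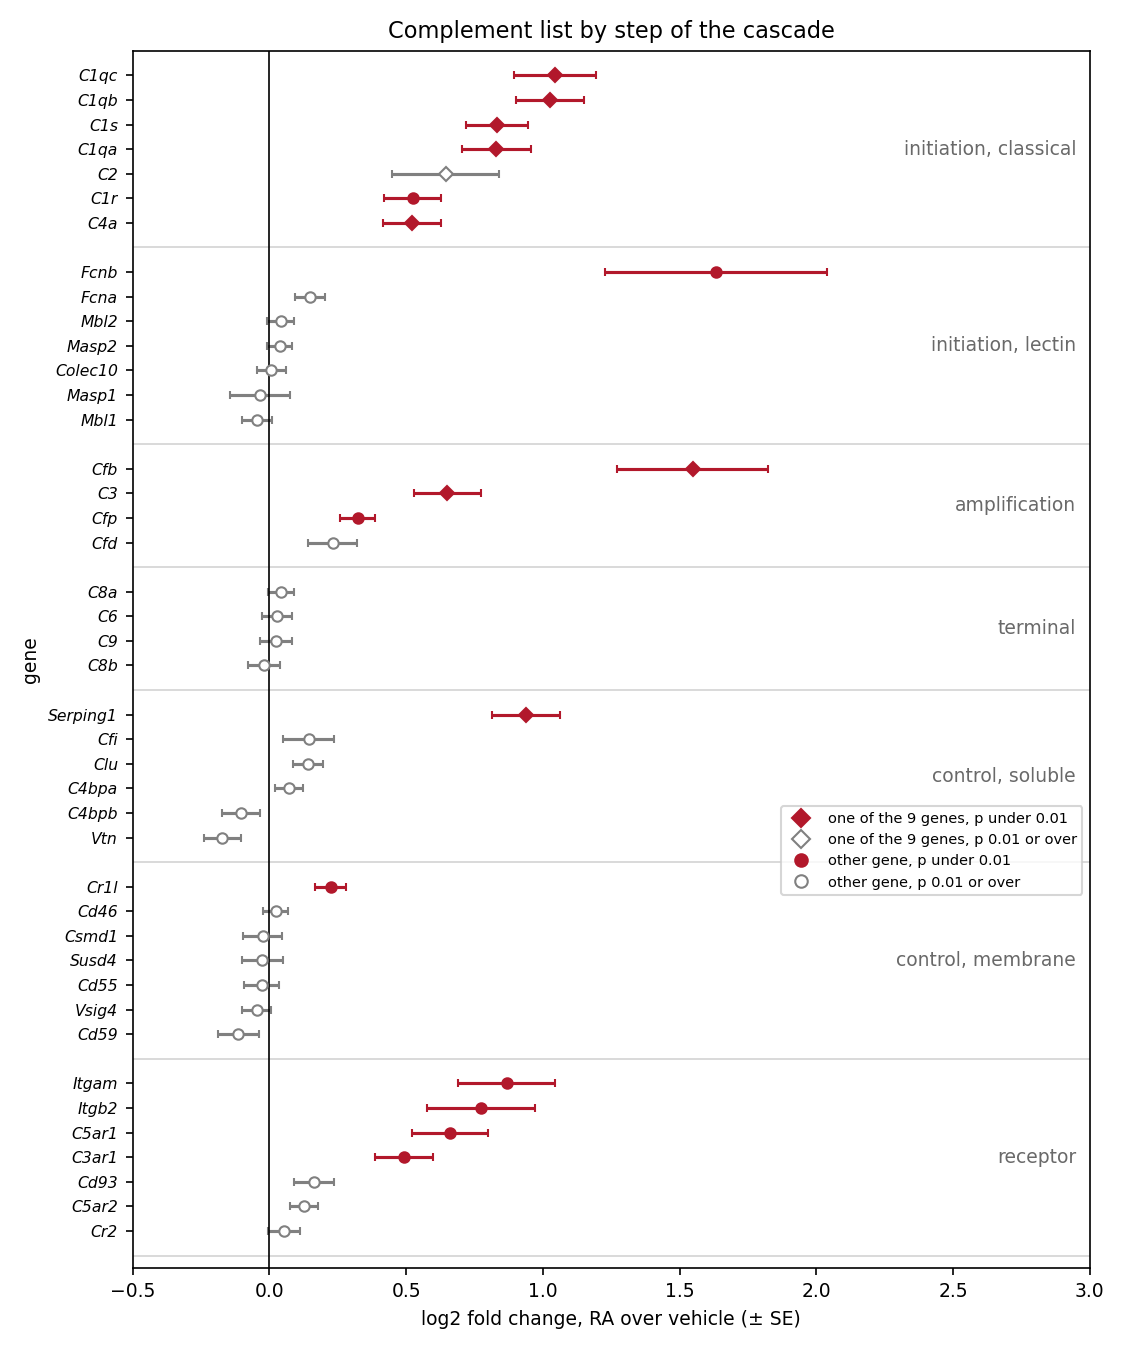
Log2 fold change of RA over vehicle with its SE (x axis) for 42 of the 43 measured complement genes (y axis), grouped by step of the cascade, with diamonds for the 9 members, circles for the others and filled red symbols for an unadjusted p under 0.01. Red symbols fill the classical group apart from *C2*, and the terminal genes, shown near 0, were not well above background on every array.

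The genes whose ratios over the 8 arrays lay closest to the mean of the 9 members were *Aif1*, encoding the calcium-binding protein Iba1, *Plek*, encoding pleckstrin, *Coro1a*, encoding an actin-binding coronin, *Tbxas1*, encoding thromboxane synthase, and *Cxcl17*, encoding a chemokine. They were found among 10011 genes outside the complement list with a signal well above background on every array in at least 1 of the channels. Their root-mean-square differences from the mean of the members were 0.13, 0.13, 0.16, 0.16 and 0.16, and their log2 fold changes 0.88, 0.92, 0.78, 0.92 and 0.83. The ratios of *Aif1* were 0.51, 0.44, 0.49 and 0.61 in the first row and 1.45, 1.01, 1.10 and 1.39 in the second.

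Marker lists of cells that may hold complement transcripts were read beside the 9 genes, without a test between them. Of 8 microglia markers, all well above background, 0 were higher and 1 was lower (*Tmem119*, log2 fold change -0.52, unadjusted p = 0.00234 in limma). *Csf1r*, a receptor of microglia and macrophages, had a value of 0.37 (unadjusted p = 0.0257 in limma). Its ratios ran from -0.12 to 0.16 in the first row and from 0.48 to 0.80 in the second. *Aif1*, given above, is also known as a microglia and macrophage gene. It was not on the marker list and was picked for its likeness to the members, so it is no separate evidence. The median of the microglia list was -0.06, between -0.16 and 0.05 on the arrays. Its mean level was 9.78 to 10.2 after RA and 9.95 to 10.2 after vehicle. Of 8 monocyte or macrophage markers 3 were higher, with log2 fold changes from 1.07 to 1.43 (*Cd14*) that lay within the range of the members. All 8 were above 0, but the rest of the list lay between 0.06 and 0.17. The defining gene *Ccr2* was well above background on 1 array after RA and 0 after vehicle. The median of that list was 0.14, from 0.06 to 0.34 on the arrays, with a mean level of 8.12 to 9.09 after RA and 7.84 to 8.29 after vehicle. Of 6 neutrophil markers 1 was higher (*S100a9*, log2 fold change 1.25, unadjusted p = 0.00845 in limma), and 3 were never well above background, with a mean level of 6.61 to 7.45 after RA and 6.46 to 6.81 after vehicle. Of 6 astrocyte markers 0 were higher and 1 was lower, with a median of -0.12 and a mean level of 12.4 to 12.6 after RA and 12.5 to 12.7 after vehicle. The part of monocyte, macrophage or neutrophil RNA in the complement ratios was not tested.

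**Figure D4:**
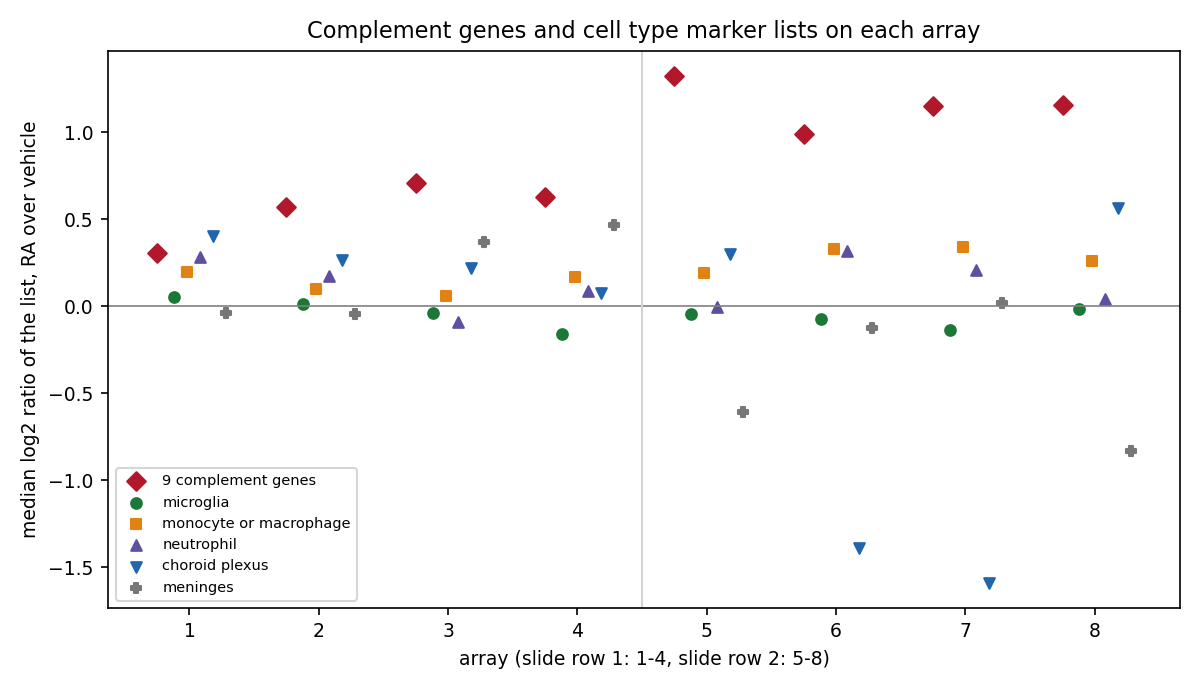
Median log2 ratio of RA over vehicle (y axis) of the 9 complement genes and of 5 cell type marker lists on each array (x axis), with the slide rows parted by a line. The complement median ran from 0.30 to 1.32, the microglia median stayed between -0.16 and 0.05, and the choroid plexus median fell to -1.39 and -1.59 on arrays 6 and 7.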

How the data were processed

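Gene expression in the hypothalamus was compared between RA and vehicle on 8 dye-swapped Agilent arrays. For each array the authors deposited spot intensity in both dyes, on a linear scale, from Agilent Feature Extraction 10.7.3.1, with its log10 ratio of Cy5 to Cy3. A series table, likewise deposited, holds log2 ratios normalised with limma. It ran as RA over vehicle on every array (Pearson's r across probes 0.985 to 1.00) with column medians near 0.

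Median intensities were corrected with normexp (offset 50) in limma 3.58.1 (R 4.3.3), control and outlier spots were removed, loess was applied within arrays, and the spots of 30367 distinct probes were averaged. Genes were named through transcript accessions and the RefSeq genes of GRCr8 (17998 probes, 59.3%, for 15153 genes), with the brightest probe kept per gene. Promoters are from RefSeq, GRCr8. Each probe was tested with limma on 4 pair means, in all 24 pairings, as it is not stated which arrays share RNA, and the largest p was kept. Replicates are rats by the methods, but with 4 pairs an exact sign-flip test cannot give a p below 0.125. The number of arrays limits the precision. The dose differs between labels and methods. Channel levels were taken after loess and Aquantile. On simulated arrays with 30347 probes the test recovered 90% of probes changed by 0.5 on the log2 scale. Of those changed by 1 and by 2 it recovered 100% and 98%, and it called 0.577% of unchanged probes. Noise was drawn for each probe by itself, so effects that many genes share on an array were not simulated.

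The text names the 9 members, complement genes with an unadjusted p under 0.01, at most 3 others per step of the cascade, the 5 most like genes, and at most 2 markers per list. Members and lists were chosen with earlier results of these data known. Of the 49 listed complement genes, 6 had no probe under their name, and 1 is counted but not reported here by itself. Marker lists of endothelial cells (median log2 fold change -0.02, 0 of 6 higher), neurons (-0.08, 0 of 5) and neuropeptides (-0.03, 0 of 15, with 1 lower) were also read. Alternatives were other background corrections, ratios, scalings, filters and designs, each dye order, each slide row and leave-one-out.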

Additional observations from a re-analysis of the deposited data

Results flagged for a closer look

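The log2 ratio of *C1s* on array 2 was 0.40, far from the other 3 arrays with RA in Cy3, which ran from 0.96 to 0.99. It was the only outlier by Dixon's criterion among 20 groups of 4 arrays (the 9 members and their median in each dye order), and chance gives about 1 in 20. The gene's ratio on array 1, of the opposite dye order, was 0.30.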

How the results depend on the processing

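All 9 members stayed above 0 in each alternative run. *C1qa*, *C1qb*, *C1qc*, *C1s* and *Serping1* passed an unadjusted p under 0.01 in 33 of 33 alternatives. *C4a* and *Cfb* passed in 31, *C3* in 30 and *C2* in 13 of 34. Not every alternative could weaken a result. Aquantile scaling leaves the ratios unchanged, and a fit of a single pairing cannot exceed the reported p, which is the largest over the pairings. The number of members that passed, 8, became 5 with plain subtraction of the background and 5 with Agilent's own log ratio. The number of complement genes that passed, 16, became 8 in both. In these settings *C4a*, *C3* and *Cfb* no longer passed (unadjusted p = 0.0146, 0.0116 and 0.0105, and 0.0209, 0.0169 and 0.0163), the log2 fold change of *Cfb* was 1.60 and 1.59, and 1.02% and 0.739% of the named genes were higher, against 3.52% as reported. The cause was not tested. With 1 array of each dye order left out in turn (leave-one-out), 8 to 9 members and 13 to 18 complement genes passed. Of the named genes, 1.62% to 3.87% were higher in these fits. The log2 fold change of *C2* was 0.39 without arrays 8 and 5, and 0.18 in slide row 1 alone, where *C1qa* was at 0.52 and *C1qc* at 0.68. The pairing 1-2, 3-4, 6-7, 8-5, as a random block, brought the members to 9 and the complement genes to 18. In that setting 5.86% of the named genes were higher, against 3.52% as reported. With 4 rats per group, the number of arrays limits every statement.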
